A study of Homo sapiens with 8 samples.

Results

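The 10 genes described here are the 3 GADD45 genes, *GADD45A*, *GADD45B* and *GADD45G*, and 7 genes known as targets of the transcription factor p53, *CDKN1A*, *MDM2*, *BTG2*, *TP53I3*, *SESN1*, *TNFRSF10B* and *TP53INP1*. They were taken by name, with no threshold on a measured value, though earlier results of these data were known when they were chosen. All 10 were among the 63241 genes listed for NCI-H716, and 7 were among the 28043 genes used for HCT116. *GADD45B* on chromosome 19, *GADD45G* on chromosome 9 and *MDM2* on chromosome 12 lie outside the stretch that the HCT116 table covers, which runs from chromosome 1 into chromosome 9, so they have NCI-H716 values only.

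RNA from 2 human colorectal cancer cell lines was sequenced after treatment with Z325 (ZINC000101867325), a compound picked by computer docking against the kinase domains of the FGF receptors, or as control. HCT116 is an epithelial colon carcinoma line, and NCI-H716 is a colorectal line with neuroendocrine features and amplified *FGFR2*. Each line had 2 control and 2 Z325 libraries, 8 in all, made from about 100 cells per reaction by full-length cDNA amplification. The labels name the libraries only Control and Test, and state no dose or duration for them. The study fixed a working concentration after viability assays, and its RNA methods do not repeat it.

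Levels are given as CPM, the counts of a gene scaled to a common library total. Library totals ran from 3434620 counts in HCT116 Z325 replicate 2 to 19738840 in NCI-H716 Z325 replicate 2. HCT116 Z325 replicate 2 stood apart by its depth, since the other 3 HCT116 libraries held 13183792 to 13396225 counts. Of the 8 intestinal epithelium markers checked, 4 were listed for HCT116 and 1 of these reached 10 counts, and 6 of 8 did so in NCI-H716. Their summed levels in NCI-H716 were 885 to 923 CPM in control and 756 to 795 CPM with Z325, without overlap, and in HCT116 1422 to 1653 CPM and 1622 to 1651 CPM. All 4 neuroendocrine markers reached 10 counts in NCI-H716, with summed levels of 566 to 643 CPM in control and 697 to 896 CPM with Z325. The 3 leukocyte markers summed to at most 1.21 CPM in any NCI-H716 library and those listed to at most 0.312 CPM in HCT116, while the 3 fibroblast markers, which are collagen genes, summed to 244 to 267 CPM in control and 311 to 353 CPM with Z325 in NCI-H716. Their part in the results was not tested.

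p53 is a stress-activated transcription factor that is held low by MDM2, the ubiquitin ligase that marks it for degradation, and *MDM2* is itself a p53 target. Once active, p53 can halt the cell cycle through p21, the cyclin-dependent kinase inhibitor encoded by *CDKN1A*, and can raise genes of DNA repair, redox control and cell death. The GADD45 proteins are small acidic stress sensors that bind PCNA, p21, cyclin B1-CDK1 and the kinase MAP3K4, and their genes answer to several stress pathways. *GADD45A* is a direct p53 target that is also raised without p53, for example by ATF4 in the integrated stress response.

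p53 binds DNA as a tetramer at a motif of 2 adjacent copies of a 10-base half-site, each with a core of C and G on either side of a pair of A or T bases. The genome (GRCh38, the build of the files) was searched on both strands for this 20-base motif, without a spacer, within 2500 bases of the annotated start of every protein-coding gene (GENCODE v44). A match with at most 2 mismatches lay in 2328 of 20033 windows (11.6%), and one with at most 1 mismatch in 178 (0.889%). Among the 10 genes, 7 had a match with at most 2 mismatches, namely *GADD45A*, *GADD45B*, *CDKN1A*, *MDM2*, *BTG2*, *TP53I3* and *TNFRSF10B*. Only *GADD45A* had one with at most 1 mismatch. *GADD45G*, *SESN1* and *TP53INP1* had none in this window, which says only that these letters are not there. The matches at 3 genes whose p53 sites are textbook examples are shown to let a reader see how alike they are. Capitals mark the 20 bases of the motif and lower case 5 bases on each side, all read 5′ to 3′ on the strand of the gene.
GADD45A: gtacaGAACATGTCTAAGCATGCTGgggac
CDKN1A: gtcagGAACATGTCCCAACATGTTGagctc
MDM2: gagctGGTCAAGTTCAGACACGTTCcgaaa
The *GADD45A* match is at chr1:67686775-67686794 on the plus strand, in an intron, 1584 bases downstream of the gene's start, with 1 mismatch. The *CDKN1A* match is at chr6:36676449-36676468 on the plus strand, across the start of the longest annotated gene span, with 2 mismatches. The *MDM2* match is at chr12:68808923-68808942 on the plus strand, in an intron, 756 bases downstream of the start, with 2 mismatches. A match is a description of the sequence and not a measured binding site.

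The first comparison asked whether the transcripts of these genes differ between Z325-treated and control HCT116 cells. None of the 7 genes passed the edgeR quasi-likelihood test at an adjusted p under 0.05. *GADD45A* came closest, higher with Z325 by 1.69-fold (95% interval 1.26 to 2.26) at an adjusted p of 0.0516, so on the wrong side of the threshold by a small margin. The fitted change was above 0 for 3 genes (*GADD45A*, *CDKN1A*, *TNFRSF10B*) and below 0 for 4 (*BTG2*, *TP53I3*, *SESN1*, *TP53INP1*), with a median log2 fold change of -0.13 beside -0.03 over all 6491 genes tested. Over all genes tested, 2.83% passed as higher and 2.94% as lower. An unadjusted p under 0.05 was seen for 1 of the 7 genes, *GADD45A*, beside 23.9% of all genes. The control and Z325 libraries did not overlap in CPM for 3 of the 7 genes, *GADD45A*, *BTG2* and *TP53INP1*, beside 53.8% of all genes tested, so a lack of overlap was no more frequent among them than among genes in general.

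**Figure D1:**
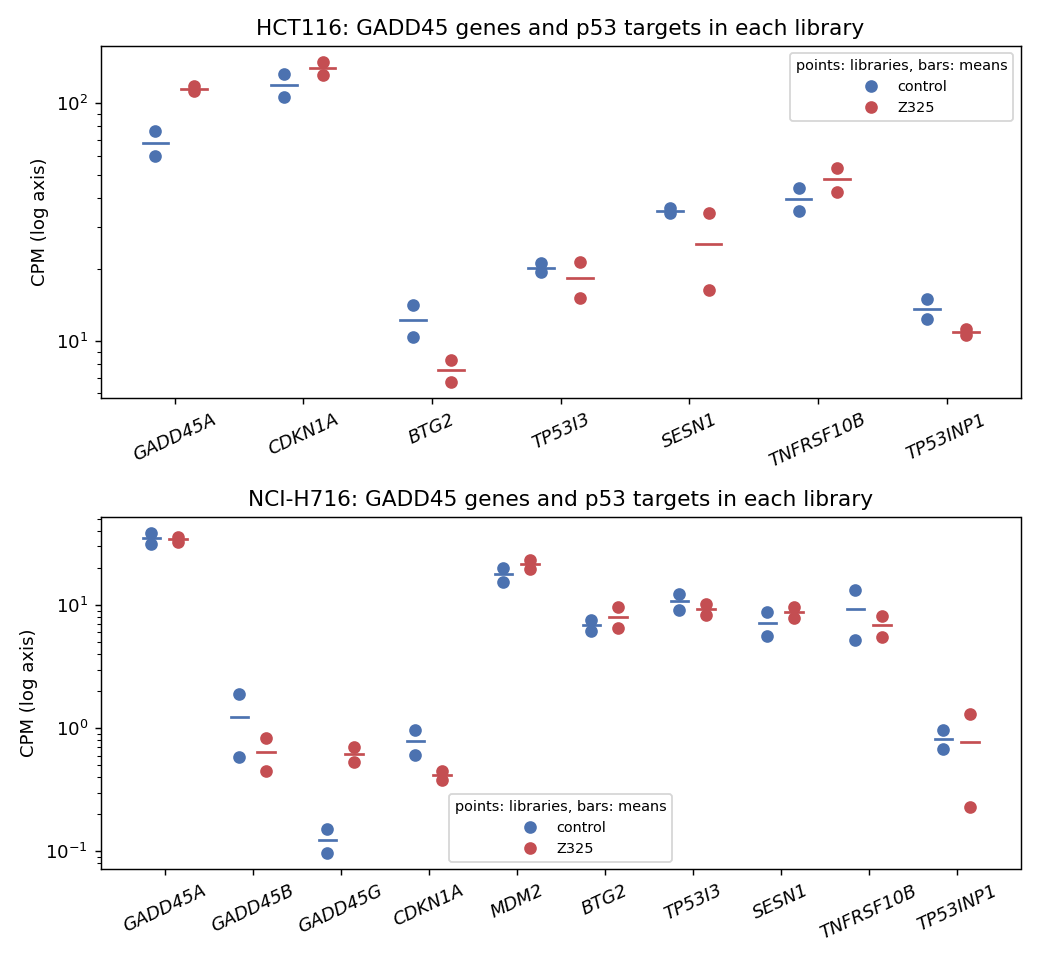
TMM-normalized CPM (log axis) of each gene in every library, with control in blue and Z325 in red, points for libraries and bars for the means of 2. In HCT116 (top) the 2 Z325 libraries of *GADD45A*, at 112 and 118 CPM, lie above both controls, and in NCI-H716 (bottom) its 4 libraries lie between 31.3 and 38.5 CPM.

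*GADD45A* (ENSG00000116717, chr1:67685201-67688334, plus strand) encodes the DNA-damage-inducible member of the GADD45 family. In HCT116 it had 60.2 and 76.1 CPM in the control libraries and 112 and 118 CPM in the Z325 libraries, from 413 to 1437 counts. Both Z325 libraries lay above both controls, and the Z325 pair lay closer together than the control pair. The means were 68.1 ± 11.3 CPM (SD, n = 2) and 115 ± 4.201 CPM (SD, n = 2), a log2 fold change of 0.76 with a standard error of 0.18 (adjusted p = 0.0516, edgeR). The call depended on the processing, as 8 of 13 alternatives put the adjusted p under 0.05. These include both fits with a single Z325 library, which called more genes over all genes than the reported fit. The fits with a single control library did not call it. With no library left out the adjusted p ran from 0.00413 (DESeq2) to 0.221 (limma on log2(FPKM + 0.1)). The log2 fold change stayed between 0.59 and 0.93 in all 13. With the shallow Z325 replicate 2 left out the log2 fold change was 0.75, and with Z325 replicate 1 left out it was 0.78.

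**Figure D2:**
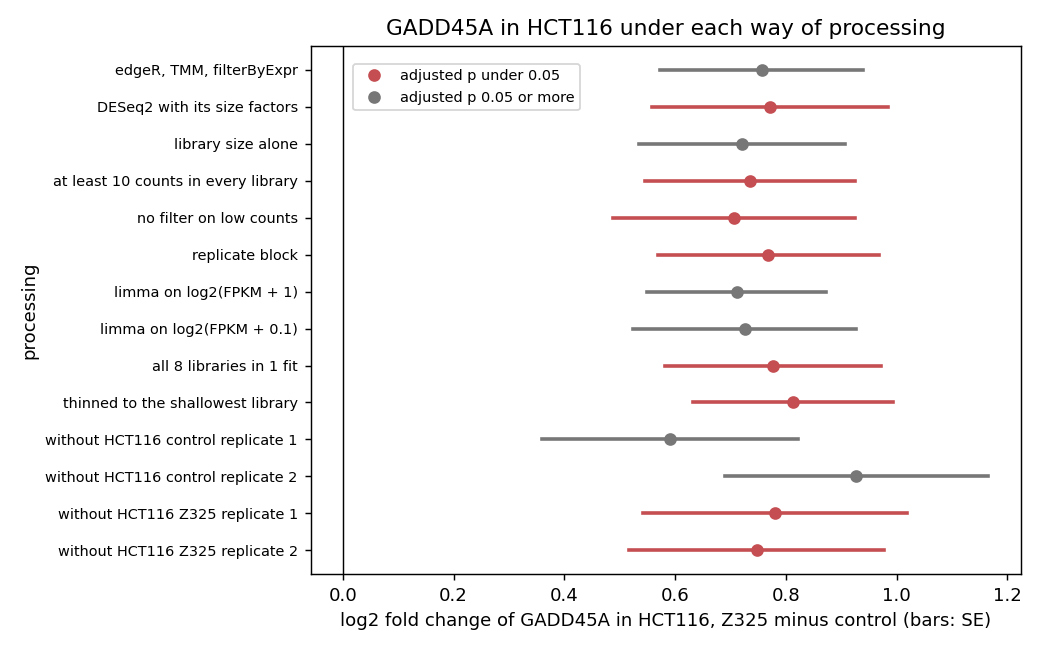
Log2 fold change of *GADD45A* in HCT116, Z325 minus control, under each way of processing, with the reported fit on top. Bars are standard errors, red marks an adjusted p under 0.05, and all 14 values lie between 0.59 and 0.93.

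*CDKN1A* (ENSG00000124762, chr6:36676460-36687337, plus strand) encodes p21. In HCT116 it stood at 106 and 133 CPM in control and 132 and 149 CPM with Z325. The groups overlapped, as the lower Z325 library sat just under the higher control. The log2 fold change was 0.23 (SE 0.17, adjusted p = 0.469, edgeR), with a 95% interval from a 0.894-fold to a 1.54-fold level. A doubling was outside that interval. *BTG2* (ENSG00000159388, chr1:203305491-203309602, plus strand), an antiproliferative cofactor of the CCR4-NOT deadenylase, went the other way. It had 144 and 185 counts in control (10.4 and 14.2 CPM) and 86 and 29 counts with Z325 (6.72 and 8.30 CPM). Both Z325 libraries were below both controls, and the log2 fold change of -0.73 (SE 0.36) did not pass (adjusted p = 0.259, edgeR).

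*SESN1* (ENSG00000080546, chr6:108984309-109094846, minus strand), whose product sestrin 1 is a stress-induced inhibitor of mTORC1 signalling, gave a value that 1 library decided. Its control libraries were at 36.3 and 34.5 CPM, Z325 replicate 1 at 16.4 CPM and Z325 replicate 2 at 34.6 CPM. Replicate 1 was thus far below both controls and replicate 2 between them. The log2 fold change was -0.51 (SE 0.35, adjusted p = 0.425, edgeR). It was -1.08 without Z325 replicate 2 and -0.05 without Z325 replicate 1. *TP53I3* (ENSG00000115129, chr2:24077433-24085861, minus strand), which encodes the quinone oxidoreductase PIG3, had 21.2 and 19.5 CPM in control and 21.5 and 15.2 CPM with Z325. The log2 fold change was -0.13 (SE 0.29, adjusted p = 0.844, edgeR), and it was 0.11 without the shallow replicate 2.

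*TNFRSF10B* (ENSG00000120889, chr8:23020133-23069031, minus strand) encodes DR5, a death receptor for the ligand TRAIL. It had 35.2 and 44.04 CPM in the HCT116 controls and 42.3 and 53.2 CPM with Z325. The lower Z325 library lay between the controls, and the log2 fold change of 0.26 (SE 0.23) did not pass (adjusted p = 0.557, edgeR). *TP53INP1* (ENSG00000164938, chr8:94925972-94949378, minus strand), a stress protein that promotes p53 activity and autophagy, had 14.95 and 12.3 CPM in control and 11.2 and 10.6 CPM with Z325. Both Z325 libraries were below both controls by a small margin, with a log2 fold change of -0.32 (SE 0.32, adjusted p = 0.593, edgeR).

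The same comparison in NCI-H716 covered all 10 genes, of which 8 passed the filter on low counts. No gene passed the test in edgeR or in DESeq2, and none had an unadjusted p under 0.05, beside 0.403% of the 14142 genes tested that passed as higher, 0.0990% that passed as lower and 16.9% with an unadjusted p under 0.05. The split of 57 higher and 14 lower genes became 162 and 146 under DESeq2. The fitted change was above 0 for 3 genes (*MDM2*, *BTG2*, *SESN1*) and below 0 for 5. The median log2 fold change was -0.03 beside -0.01 over all genes. The control and Z325 libraries overlapped in CPM for all 8 tested genes, whereas 49.4% of all genes tested did not overlap.

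**Figure D3:**
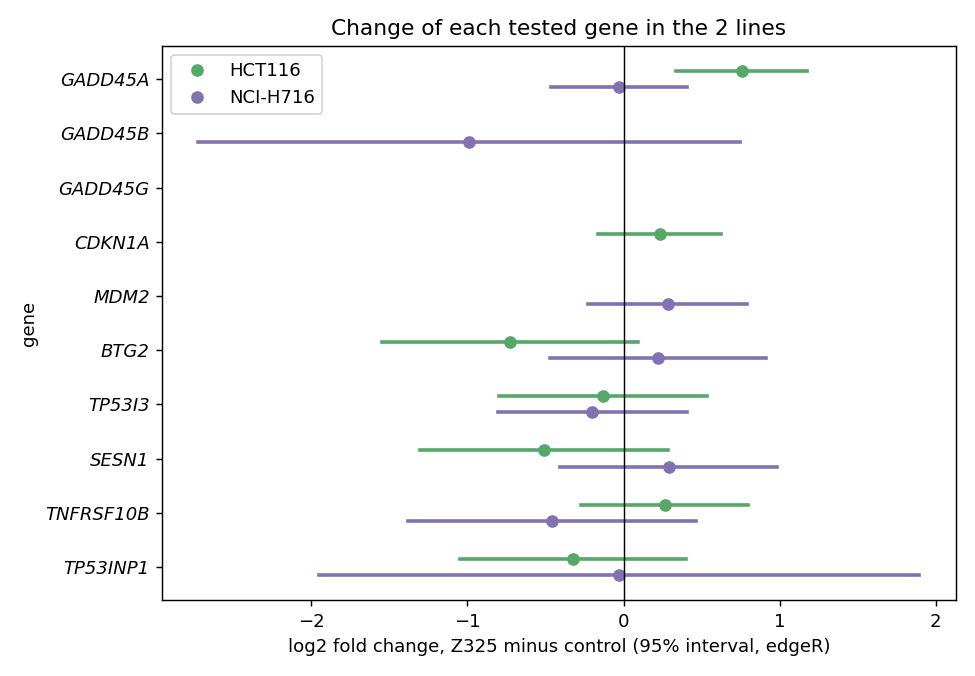
Log2 fold change with Z325 of each gene that was tested, with its 95% interval from edgeR, in HCT116 (green) and NCI-H716 (purple). Only the HCT116 interval of *GADD45A*, 0.34 to 1.18, lies clear of 0, while the widest intervals are those of *GADD45B* and *TP53INP1* in NCI-H716, which rest on at most 26 counts per library.

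Of the GADD45 genes in NCI-H716, *GADD45A* was at 38.5 and 31.3 CPM in control and at 35.9 and 32.6 CPM with Z325. The Z325 libraries lay within the range of the controls, and the log2 fold change was -0.03 (SE 0.20, adjusted p = 0.957, edgeR), with a 95% interval from 0.724-fold to 1.33-fold. *GADD45B* (ENSG00000099860, chr19:2476122-2478259, plus strand), the member known for its induction by TGF-beta and NF-kappaB, had 25 and 6 counts in control and 11 and 9 with Z325. Scaled for depth these are 1.89 and 0.581 CPM against 0.838 and 0.451 CPM, so in CPM the lower control lay between the Z325 libraries. In the authors' TPM, at 2.6 and 0.89 against 0.55 and 0.36, both Z325 libraries lay below both controls. Scaled to the library totals the Z325 to control ratio was 0.462. Its 95% counting interval, from 0.250 to 0.837, covers counting error only and not the spread between libraries. The log2 fold change of -0.99 (SE 0.78) did not pass (adjusted p = 0.551, edgeR). It was 0.13 without control replicate 1, the library with 25 counts.

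*GADD45G* (ENSG00000130222, chr9:89605012-89606555, plus strand), the cytokine-responsive member, was too low to be tested. It had 2 and 1 counts in control and 7 and 14 counts with Z325. Both Z325 libraries lay above both controls, from 3 counts in all against 21. Scaled to the library totals the ratio was 5.01, with a 95% counting interval from 1.497 to 26.3 that covers counting error only and not the spread between libraries. With the filter on low counts removed, edgeR gave it a p of 0.0840 and an adjusted p of 0.647.

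*MDM2* (ENSG00000135679, chr12:68808177-68845544, plus strand) had 15.5 and 20.03 CPM in the NCI-H716 controls and 19.8 and 23.3 CPM with Z325. The lower Z325 library sat just under the higher control, and the log2 fold change was 0.28 (SE 0.23, adjusted p = 0.563, edgeR). Its paralog *MDM4*, which binds and inhibits p53, had log2 fold changes of 0.24 in HCT116 (SE 0.18, adjusted p = 0.489) and 0.24 in NCI-H716 (SE 0.19, adjusted p = 0.556, edgeR).

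*CDKN1A* was barely read in NCI-H716, with 8 and 10 counts in control and 5 and 9 with Z325, and was not tested. In CPM both Z325 libraries, at 0.381 and 0.451, lay below both controls, at 0.604 and 0.968. With the filter on low counts removed, edgeR gave it a p of 0.369 and an adjusted p of 0.830. On the scale of the library totals the Z325 to control ratio was 0.557, with a 95% counting interval from 0.256 to 1.19 that includes 1. *TP53INP1* was as low, with 9 and 10 counts in control and 3 and 26 with Z325, so the Z325 libraries lay on both sides of the controls (log2 fold change -0.03, SE 0.87, adjusted p = 0.991, edgeR).

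The other 4 targets were better covered in NCI-H716. *BTG2* had 7.56 and 6.19 CPM in control and 9.60 and 6.52 CPM with Z325 (log2 fold change 0.22, SE 0.31, adjusted p = 0.767, edgeR). *TP53I3* had 12.2 and 9.19 CPM in control and 8.38 and 10.3 CPM with Z325 (log2 fold change -0.20, SE 0.27, adjusted p = 0.757, edgeR). *SESN1* had 5.59 and 8.81 CPM in control and 9.68 and 7.87 CPM with Z325 (log2 fold change 0.29, SE 0.31, adjusted p = 0.686, edgeR). In each of the 3 the libraries of both groups were interleaved in CPM. In the authors' TPM both *BTG2* Z325 libraries, at 3.82 and 2.85, lay above both controls, at 2.52 and 1.89. Limma on log2(FPKM + 1) gave *BTG2* a log2 fold change of 0.52 (adjusted p = 0.412). *TNFRSF10B* had 13.3 and 5.22 CPM in control and 8.23 and 5.47 CPM with Z325 (log2 fold change -0.46, SE 0.42, adjusted p = 0.616, edgeR). Its 2 controls lay on either side of both Z325 libraries, and without control replicate 1 the log2 fold change was 0.39.

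To ask whether Z325 changed the 7 genes in both tables differently in each line, an interaction term of line with treatment was fitted over all 8 libraries. None passed in edgeR or in DESeq2, beside 0.0654% of the 7642 genes tested. An unadjusted p under 0.05 was reached by *GADD45A* and *CDKN1A*, 2 of 7 genes, beside 14.3% of all genes. Of these, *CDKN1A* did not pass the filter on low counts in NCI-H716 alone. It entered this fit through its 522 to 1736 counts in HCT116, so nothing is drawn from its p. For *GADD45A* the change in HCT116 was larger than that in NCI-H716 by 0.80 on the log2 scale (SE 0.28, 95% interval 0.20 to 1.40, adjusted p = 0.236, edgeR). For *CDKN1A* the difference was 1.10 (SE 0.49, 95% interval 0.04 to 2.16, adjusted p = 0.331, edgeR), and on the NCI-H716 side it rests on 5 to 10 counts per library. The difference for *BTG2* was -0.93 (SE 0.50, adjusted p = 0.417, edgeR) and for *SESN1* -0.80 (SE 0.50, adjusted p = 0.490, edgeR). The other 3 had adjusted p-values of 0.556 (*TNFRSF10B*), 0.952 (*TP53INP1*) and 0.999943 (*TP53I3*).

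The order of the genes by level was then set out per length, as the CPM over the genes that both tables list, divided by the kilobases of annotated exon. In the HCT116 controls the order was *CDKN1A* (40.3 ± 5.14, SD, n = 2), *GADD45A* (35.8 ± 4.76), *TP53I3* (8.92 ± 0.826), *TNFRSF10B* (7.996 ± 1.003), *SESN1* (4.93 ± 0.340), *BTG2* (4.50 ± 0.830) and *TP53INP1* (2.46 ± 0.414). The libraries of *CDKN1A* and *GADD45A* overlapped, as did those of *TP53I3* and *TNFRSF10B* and those of *SESN1* and *BTG2*, so the genes fell into 3 pairs of like level above *TP53INP1*. In the Z325 libraries *GADD45A* was first at 59.1 ± 4.77 (SD, n = 2) and no longer overlapped *CDKN1A* at 46.4 ± 6.15.

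In the NCI-H716 controls *GADD45A* was highest at 42.0 ± 6.24 per kilobase (SD, n = 2), followed by *TP53I3* at 10.8 ± 2.19, with neither overlapping the next gene. *BTG2*, *MDM2*, *TNFRSF10B* and *SESN1* formed a run of overlapping neighbours from 5.79 down to 2.30. The authors' TPM, another measure per length, placed *MDM2* higher, at 8.49 and 11.32 in the controls. By TPM it lay above *BTG2*, at 2.52 and 1.89, and overlapped *TP53I3*, at 8.65 and 7.52, so these ranks depend on the measure. *GADD45B* at 1.34 overlapped *SESN1* above it and *CDKN1A* at 0.609 below it. *TP53INP1* at 0.339 and *GADD45G* at 0.218 were last. Among the GADD45 genes, *GADD45A* was thus the only one in NCI-H716 with a level above 3 per kilobase in any library.

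**Figure D4:**
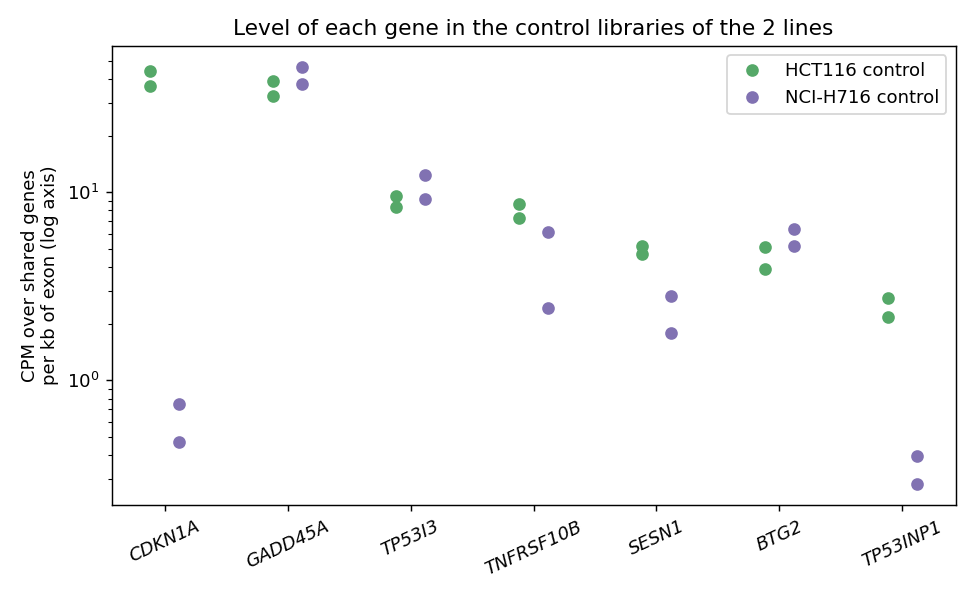
Level of the 7 genes listed for both lines in the control libraries, as CPM over shared genes per kilobase of exon (log axis), with HCT116 in green, NCI-H716 in purple and 1 point per library. *CDKN1A* has means of 40.3 and 0.609 in the 2 lines, while *GADD45A* has means of 35.8 and 42.0.

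Set side by side, the control level of *CDKN1A* was 66.2-fold higher in HCT116 than in NCI-H716, and that of *TP53INP1* 7.25-fold higher. *SESN1* was 2.15-fold and *TNFRSF10B* 1.86-fold higher in HCT116, while *GADD45A*, *TP53I3* and *BTG2* were 1.17-fold, 1.21-fold and 1.29-fold higher in NCI-H716. The control libraries of the lines overlapped for *GADD45A* and *TP53I3* and not for the other genes. How often they overlap over all genes was not counted. The levels were scaled over the same shared genes, but the 2 lines were quantified apart. Line and quantification therefore cannot be told apart, and these ratios carry no test. In bulk RNA, fewer expressing cells and less RNA per cell cannot be told apart either.

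Several of these genes share exon bases with a neighbour, and since the counting strategy for such bases and for strand is not given in the sources used here, their values are uncertain to that extent. *CDKN1A* shares 146 bases with the antisense RNA *DINOL*, which had at most 2 counts in any library. *TP53I3* shares 80 bases with *FAM228B*, which had log2 fold changes of 1.33 in HCT116 (adjusted p = 0.135) and 1.35 in NCI-H716 (adjusted p = 0.184, edgeR) at 18 to 98 counts. *TNFRSF10B* shares 377 bases, 7.52% of its exon length, with *RHOBTB2*, which had 4 to 29 counts. *TP53INP1* shares 225 bases with *NDUFAF6*, which in NCI-H716 had 395 to 598 counts against its own 3 to 26. *MDM2* shares 133 bases with the gene *CPM*, 785 with the RNA ENSG00000257181 and 439 with the pseudogene ENSG00000256664, and *SESN1* shares 363 with the RNA ENSG00000271730.

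Other p53 targets were counted over a list of 44 genes. In HCT116, 18 were tested, and 1 passed as higher and 0 as lower, beside 2.83% and 2.94% of all genes tested. Of the 18, 5 were fitted above 0 and 13 below, with a median log2 fold change of -0.17 beside -0.03 over all genes. The gene that rose was *SFN*, which encodes the checkpoint protein 14-3-3 sigma, from 18.1 and 29.2 CPM to 48.2 and 79.2 CPM (log2 fold change 1.42, SE 0.32, adjusted p = 0.0430, edgeR). No gene of the list passed with scaling by library size only, with limma on FPKM, or without either control library, and 2 passed without either Z325 library. *STEAP3*, a ferrireductase, and *TNFRSF10D*, a decoy receptor for TRAIL, had log2 fold changes of -1.35 (adjusted p = 0.116) and -0.71 (adjusted p = 0.124, edgeR). In NCI-H716, 33 were tested, with a median of 0.07 beside -0.01, and 1 passed, as higher, beside 0.403% of all genes tested. This was *GDF15*, a secreted stress cytokine that ATF4 and CHOP also raise, which went from 2.64 and 1.64 CPM to 10.2 and 11.5 CPM (log2 fold change 2.32, SE 0.35, adjusted p = 0.0176, edgeR). None of the list passed with limma on FPKM. None passed in the fit over all 8 libraries either, but *GDF15* is not listed for HCT116 and so was not in that fit. *TIGAR*, a fructose bisphosphatase, had a log2 fold change of 1.16 (adjusted p = 0.121), and *TRIAP1*, an apoptosis inhibitor, one of -0.52 (adjusted p = 0.219, edgeR).

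The partners that p21 binds, which are cyclins, their kinases and PCNA, showed calls in HCT116. Of 12 listed genes 5 were tested and 3 passed as lower, beside 2.94% of all genes tested. The median log2 fold change was -0.75 beside -0.03 over all genes. Of the 5, 4 were fitted below 0 and 1 above. *CCNA2* (cyclin A2) fell from 366 and 422 CPM to 242 and 225 CPM (log2 fold change -0.75, SE 0.14, adjusted p = 0.0207, edgeR). *CDK6*, a G1 kinase, fell from 160 and 112 CPM to 64.3 and 70.1 CPM (log2 fold change -1.02, SE 0.21, adjusted p = 0.0292, edgeR). *CCNB1* (cyclin B1), also a GADD45 partner, fell from 3565 and 4027 CPM to 2629 and 2433 CPM (log2 fold change -0.58, SE 0.13, adjusted p = 0.0406, edgeR). *CCND3* (cyclin D3) had a log2 fold change of -1.07 at an adjusted p of 0.0669. None of the 5 passed when either control library was left out.

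In NCI-H716 none of the 11 tested p21 partners passed in edgeR, and 1 passed in DESeq2. An unadjusted p under 0.05 (edgeR) was seen for 6 of them, beside 16.9% of all genes tested. Of the 11, 9 were fitted below 0, with a median of -0.46 beside -0.01. *PCNA*, the replication clamp that p21 and GADD45 proteins bind, had a log2 fold change of -0.62 (adjusted p = 0.128), *CCND1* (cyclin D1) -0.58 (adjusted p = 0.185) and *CDK1* -0.50 (adjusted p = 0.203, edgeR). *CDK6* was at 0.71 (adjusted p = 0.167) in NCI-H716, and the difference between the lines for it was -1.72 (adjusted p = 0.0663, edgeR).

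The 11 GADD45 partners were the kinases of the p38 and JNK branches with CDK1, cyclin B1 and PCNA. In HCT116 *CCNB1* alone passed, as lower, out of 4 tested, beside 2.94% of all genes tested. None of 11 passed in NCI-H716 in edgeR, and 1 passed in DESeq2. There 3 had an unadjusted p under 0.05 (edgeR), beside 16.9% of all genes. *CCNB1* did not pass in HCT116 without either control library. *MAPK14*, the p38 alpha kinase, had log2 fold changes of -0.51 in HCT116 (adjusted p = 0.203) and 0.04 in NCI-H716 (adjusted p = 0.931, edgeR). *MAP2K6* and *MAP2K3*, the kinases that activate p38, were at 0.37 (adjusted p = 0.318) and -0.53 (adjusted p = 0.297, edgeR) in NCI-H716.

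No gene of the p53 regulators passed in edgeR or DESeq2, out of 9 tested in HCT116 and 24 in NCI-H716. An unadjusted p under 0.05 (edgeR) was seen for 1 and 6 of them, beside 23.9% and 16.9% of all genes. Other settings called regulators in NCI-H716, namely 3 with no filter, 7 with a replicate block and 5 without Z325 replicate 1. *ATR*, the replication stress kinase, had a log2 fold change of -0.59 in HCT116 (adjusted p = 0.108) and *CDKN2A*, whose ARF product inhibits MDM2, one of -0.87 in NCI-H716 (adjusted p = 0.177, edgeR). In the TRAIL pathway 0 of 8 and 0 of 10 genes passed in either tool. There 1 and 2 had an unadjusted p under 0.05 (edgeR), beside the same 23.9% and 16.9% of all genes. *TNFRSF10A*, the other TRAIL death receptor, was at -0.06 in HCT116 (adjusted p = 0.918) and 0.72 in NCI-H716 (adjusted p = 0.345, edgeR).

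Of the paralogs of the 10 genes, 0 of 5 passed in HCT116 and 0 of 13 in NCI-H716, and 0 passed in DESeq2. An unadjusted p under 0.05 (edgeR) was seen for 2 and 4 of them, beside 23.9% and 16.9% of all genes. The 4 of 13 in NCI-H716 were higher with Z325 in both libraries than in either control. They were picked by their p, so this separation follows in part from the choice. Of all genes tested, with no such choice, 49.4% had no overlap in one direction or the other. With no filter 1 passed, with a replicate block 4, and 1 without NCI-H716 Z325 replicate 1. In HCT116 1 passed without Z325 replicate 2. *CDKN1B*, which encodes the kinase inhibitor p27, had 12.1 and 15.9 CPM in control and 20.7 and 33.9 CPM with Z325 (log2 fold change 0.97, SE 0.28, adjusted p = 0.156, edgeR). *TOB2* and *BTG1*, of the same antiproliferative family as *BTG2*, had log2 fold changes of 0.70 (adjusted p = 0.175) and 0.56 (adjusted p = 0.183), and the sestrin gene *SESN3* one of 0.49 (adjusted p = 0.244, edgeR).

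The stress genes of ATF4 and of CHOP, the transcription factors through which *GADD45A* and *TNFRSF10B* can be raised without p53, were listed as 16 genes. In NCI-H716 2 of 15 tested genes passed, both higher, beside 0.403% of all genes tested. All 15 were fitted above 0, with a median log2 fold change of 0.90 beside -0.01 over all genes. The list itself was not tested, and none passed with limma on FPKM. None passed in the fit over all 8 libraries either, but that fit holds only genes listed for both lines. Of the 16 genes, 5 were listed for HCT116, and *TRIB3* was not among them, so that fit could not call it. *ASNS*, the other gene that passed, was in that fit and did not pass there. *TRIB3*, a pseudokinase target of CHOP, rose from 80.2 and 89.4 CPM to 220 and 238 CPM (log2 fold change 1.43, SE 0.16, adjusted p = 0.00410, edgeR). *ASNS* (asparagine synthetase), an ATF4 target, rose from 103 and 108 CPM to 256 and 233 CPM (log2 fold change 1.21, SE 0.16, adjusted p = 0.00976, edgeR). Just outside the threshold were *NUPR1* at 2.67 (adjusted p = 0.0507), *DDIT3*, which encodes CHOP, at 0.90 (adjusted p = 0.0570), *ATF4* at 0.91 (adjusted p = 0.0665) and *CEBPB* at 1.499 (adjusted p = 0.0760, edgeR). In the same NCI-H716 libraries *GADD45A* was at -0.03 and *TNFRSF10B* at -0.46, as given above. In HCT116 only 3 of the 16 genes were tested and none passed in edgeR or DESeq2. Of the 3, 0 had an unadjusted p under 0.05 (edgeR), beside 23.9% of all genes, and *ASNS* was read 0 to 27 times there.

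**Figure D5:**
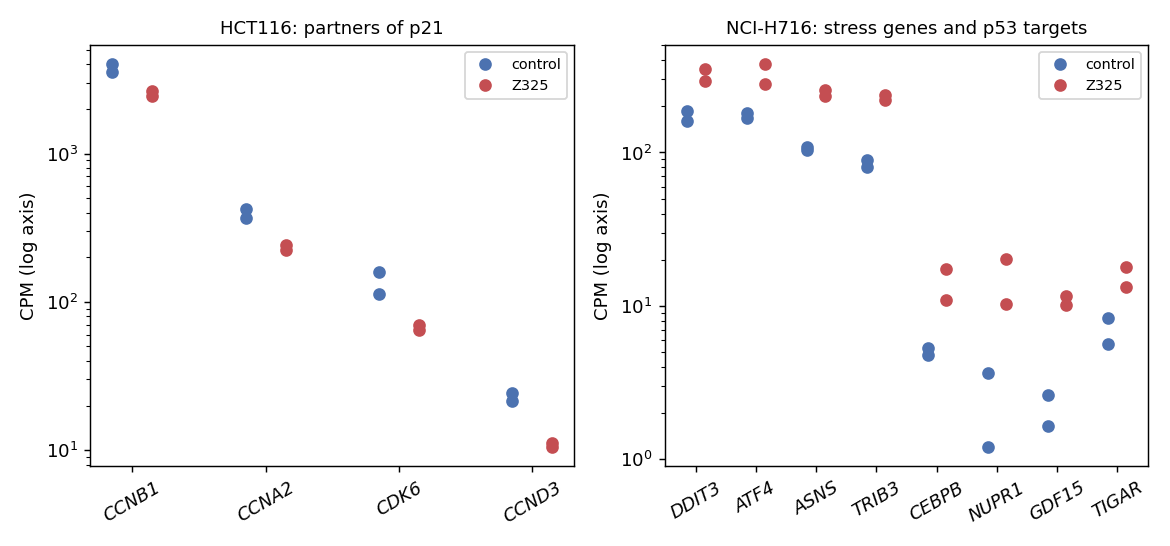
CPM per library (log axis) of 4 p21 partners in HCT116 (left) and of 6 ATF4 and CHOP stress genes and 2 p53 targets in NCI-H716 (right), with control in blue and Z325 in red and 1 point per library. All 4 genes on the left have both Z325 libraries below both controls, and all 8 on the right have both above. They were picked among the smallest p of their lists, so this separation follows in part from the choice. Of all genes tested, 53.8% in HCT116 and 49.4% in NCI-H716 had no overlap in one direction or the other. Of the 5 p21 partners tested in HCT116, 1 was fitted above 0 and is not shown.

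The genes most like *GADD45A* were ranked by the Pearson correlation of log2 CPM, centred within each line, over the 8 libraries among 5013 genes tested in both lines. They were *RARS2*, a mitochondrial arginyl-tRNA synthetase (r = 0.983), *EMC3*, a subunit of the membrane protein insertase of the endoplasmic reticulum (r = 0.972), *CGREF1* (r = 0.972), *SNX24*, a sorting nexin (r = 0.966), and *NOL7*, a nucleolar protein (r = 0.966). Of these, *EMC3* (log2 fold change 0.69, adjusted p = 0.0289) and *SNX24* (0.99, adjusted p = 0.0332, edgeR) passed in HCT116. The 5 p53 targets tested in both lines, *BTG2*, *TP53I3*, *SESN1*, *TNFRSF10B* and *TP53INP1*, had lower values, from -0.52 for *SESN1* to 0.54 for *TNFRSF10B*. The 8 points share their library depths and cell lines, so these values are a description only.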

How the data were processed

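Cells were amplified by a SMART-Seq2 type protocol and sequenced in 8 libraries, 2 per line and treatment. For HCT116 the authors deposited raw read counts per gene in the layout of featureCounts, which the submitters' processing notes name with Bowtie2 2.5.0 and hg38. The table used here ends within chromosome 9, and 4 broken lines out of 28047 were not used. For NCI-H716 the authors deposited RSEM expected counts, TPM and FPKM per gene, and the study's methods name trimming, STAR and GRCh38. Symbols of NCI-H716 came from GENCODE v44 (62666 of 63241 identifiers matched). Groups came from the sample titles. The samples are described as biological duplicates, with nothing on separate cultures, so p-values measure the spread between these libraries.

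Expected counts were rounded. Each line was fitted alone in edgeR 4.0.16 (TMM, filterByExpr, quasi-likelihood test, Benjamini-Hochberg over all genes tested), and the interaction over all 8. Estimated biological variation (edgeR, as a coefficient) came to 0.245 for HCT116 and 0.203 for NCI-H716. CPM is TMM-normalized. A gene was called at an adjusted p under 0.05. The smallest exact permutation p for 2 libraries against 2 is 0.333, so single values were not tested that way. FPKM of HCT116 was computed here from the deposited counts and lengths. The 10 genes and all gene lists were chosen with earlier results of these data known. Of each list, up to 6 genes with the smallest p in either line could be named, with *MDM4*, genes overlapping one of the 10 and the 5 most like *GADD45A*. Not every gene chosen this way is reported here. Alternatives were DESeq2 1.42.0, plain library-size scaling, requiring 10 counts in each library, testing without a filter, limma 3.58.1 on log2(FPKM + 1) and log2(FPKM + 0.1), a replicate block, 1 fit over all libraries, thinning to the shallowest library, and leaving out each library. Steps were tested on simulated data. Sequences were read from GRCh38 by position. R 4.3.3, Python and matplotlib were used.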

Additional observations from a re-analysis of the deposited data

How the results depend on the processing

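The 53 results and their alternatives gave 682 pairs, of which 540 kept their direction and their side of the threshold or stayed within the spread. With 2 libraries per group, and 3434620 counts in the shallowest, changes of low genes (*GADD45B*, *GADD45G*, *TP53INP1*, *CDKN1A* in NCI-H716) were not detectable unless large. A fit that leaves out 1 library assumes that the lone sample of its group varies like the others.

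The count of the 10 genes called in HCT116 went from 0 to 1 under DESeq2, a minimum of 10 counts, no filter, the replicate block, the fit over all 8 libraries and thinning, in each case *GADD45A*, and ran from 0 to 2 when 1 library was left out. The replicate numbers are shared between groups but are not stated to mark a common origin. Deviations of same-numbered libraries correlated at -0.03 in HCT116 and 0.20 in NCI-H716, over 2 pairs each. With the block the genes called over all genes went from 184 higher and 191 lower to 177 and 204 in HCT116, and from 57 and 14 to 1061 and 1336 in NCI-H716, where none of the 10 genes was called. Over all genes, higher and lower calls were 359 and 367 in HCT116 and 162 and 146 in NCI-H716 under DESeq2, where the median of all NCI-H716 genes was 0.12. They were 260 and 423 in HCT116 and 290 and 487 in NCI-H716 with no filter (median 0.13), and 270 and 345 in HCT116 with a minimum of 10 counts. Limma on FPKM called at most 6 higher and 3 lower in either line. With all 8 libraries, a fit of only the 7642 genes tested over both lines, NCI-H716 had 17 and 2. Leaving out 1 library gave 15 to 513 higher and 6 to 562 lower in HCT116, and 31 to 502 and 7 to 884 in NCI-H716. Under the block the calls in NCI-H716 went from 0 to 7 for the p21 partners, 0 to 7 for the p53 regulators, 0 to 4 for the GADD45 partners, 0 to 4 for the paralogs, 0 to 2 for the TRAIL pathway, 1 to 6 for other p53 targets and 2 to 10 for the ATF4 and CHOP stress genes, and from 1 to 0 for the GADD45 partners in HCT116. Of the ATF4 and CHOP stress genes, NCI-H716 had 8 under DESeq2 and with no filter. It had 4 with library size alone and with a minimum of 10 counts, and 0 with limma on FPKM. With all 8 libraries it had 0, in a fit that holds *ASNS* but lacks *TRIB3* and other genes not listed for HCT116. With no filter NCI-H716 had 3 p53 regulators, 2 other p53 targets, 2 p21 partners, 1 GADD45 partner and 1 paralog. The other p53 targets called in HCT116 went from 1 to 0 with library size alone and limma on FPKM, and the GADD45 partners from 1 to 0 with limma. The p21 partners called in HCT116 were 0 with limma on FPKM and 0 to 4 with 1 library left out.

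These log2 fold changes changed sign, none of them past the threshold, and the cause was not tested. In NCI-H716, *GADD45A* was 0.14 under limma with either pseudocount, 0.022 when thinned, and -0.16 to 0.14 with 1 library left out (0.14 without control replicate 1, 0.06 without Z325 replicate 2). With 1 library left out in NCI-H716, *GADD45B* ran from -1.56 to 0.13, *TP53I3* from -0.38 to 0.031, *SESN1* from -0.0023 to 0.66 and *TNFRSF10B* from -0.95 to 0.39, each turning without control replicate 1. *BTG2* ran from -0.070 to 0.49, turning without Z325 replicate 1. *TP53INP1* was 0.013 with all 8 libraries and ran from -1.78 to 0.68, above 0 without control replicate 2 (0.23) and without Z325 replicate 1. In HCT116, *TP53I3* ran from -0.44 to 0.11, above 0 without Z325 replicate 2. For the difference between the lines, *TP53I3* ran from -0.32 to 0.29, below 0 without HCT116 Z325 replicate 1, NCI-H716 control replicate 1 (-0.19) or NCI-H716 Z325 replicate 1 (-0.085). *TNFRSF10B* ran from -0.16 to 1.24, below 0 without NCI-H716 control replicate 1, and *TP53INP1* from -1.03 to 1.48, above 0 without NCI-H716 Z325 replicate 2.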
